A study of Mus musculus with 50 samples.

Results

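Reduced representation bisulfite sequencing of mouse soleus muscle gave methylated and unmethylated counts at 205304 CpGs on 19 autosomes, grouped into 51038 clusters of CpGs no more than 100 bases apart. Of these clusters, 4117 (8.07%) held 10 to 29 CpGs in the genome and had a mean methylation level of 20 to 60% over the 21 wild-type (WT) samples, and they are described here as the partly methylated clusters. Their level in WT chose them, so that level is a description and carries no test. The other clusters of the same CpG density were 3084 below 20%, called lightly methylated, and 7745 above 60%, called fully methylated. All mice were C57BL/6, 12 weeks old, of both sexes, and homozygous for a floxed Dnmt3a allele with loxP sites around exon 19. The mD3AKO mice (KO) also carried Cre recombinase under the muscle creatine kinase promoter (mCK-Cre), which acts late in muscle differentiation, so that satellite cells and the non-muscle cells of the tissue presumably keep the gene, and the WT mice carried the floxed alleles without Cre. Mice were killed after sham exercise (rest) or 10, 30 or 60 min after a 30 min treadmill run. Counts were used from 5, 5, 5 and 6 WT samples and from 5, 5, 7 and 6 KO samples at rest, 10, 30 and 60 min, and each sample held between 12819404 and 41285655 calls.

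DNA methyltransferase 3A adds methyl groups to CpGs that carry none, and DNA methyltransferase 1 copies existing methylation onto the new strand after replication. In most adult tissues CpG islands at active promoters are nearly free of methylation and the rest of the genome is nearly fully methylated, and intermediate levels are common at island shores, distal regulatory elements and imprinted regions. A level between these extremes in a whole muscle is the methylated share of many DNA copies, so that methylation of a few copies in every fibre nucleus cannot be told apart from full methylation in a share of the nuclei, and fewer cells of a type cannot be told apart from less methylation per cell. The 8 clusters at promoters of the muscle fibre genes taken as a check of the tissue label had a median WT level of 1.60%, and the 5 at promoters of genes of blood, vessel and epithelial cells had 15.9%. The 3 clusters in Dnmt3a had a median WT level of 4.04%, so that none was partly methylated, and methylation there does not report on the deletion itself. WT sample 32 (30 min) stood apart from its group, with a mean over the partly methylated clusters of 34.6% against 42.6 to 45.8% in the rest. WT sample 35 (10 min) had a lower mean, 34.1%. By Dixon's criterion such samples were flagged in 4 of 112 groups tested, where chance flags about 5.6.

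Reference sequence (mm10, forward strand) is shown for the clusters on which the results turn, with the CpGs that had counts in capitals. The first 4 are clusters that fell in KO, and the next 2 were among the 3 with the smallest spread between WT samples, with both counted CpGs inside CCGG, the site cut by MspI in library preparation. The last is one of the 3 clusters whose counted CpGs differed most from each other in level.
Trio, chr15:27784240-27784358: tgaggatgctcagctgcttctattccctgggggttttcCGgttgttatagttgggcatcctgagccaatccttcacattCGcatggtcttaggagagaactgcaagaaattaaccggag
Nav2, chr7:49348294-49348457: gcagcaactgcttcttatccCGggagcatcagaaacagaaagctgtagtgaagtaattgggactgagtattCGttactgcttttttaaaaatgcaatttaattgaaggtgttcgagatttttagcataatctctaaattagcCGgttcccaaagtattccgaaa
Coro1c, chr5:113897825-113897944: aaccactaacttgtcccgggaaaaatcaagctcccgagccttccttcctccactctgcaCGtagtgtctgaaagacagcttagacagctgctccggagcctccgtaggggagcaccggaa
Camkk2, chr5:122773830-122773949: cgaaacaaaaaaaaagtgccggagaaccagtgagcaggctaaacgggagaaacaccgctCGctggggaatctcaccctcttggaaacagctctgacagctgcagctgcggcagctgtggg
Il27, chr7:126600175-126600293: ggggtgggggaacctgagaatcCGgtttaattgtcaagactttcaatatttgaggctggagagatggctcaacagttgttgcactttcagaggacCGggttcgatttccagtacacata
Rcc1, chr4:132337637-132337756: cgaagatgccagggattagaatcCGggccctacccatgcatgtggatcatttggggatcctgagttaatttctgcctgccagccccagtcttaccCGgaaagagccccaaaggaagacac
Zfp935, chr13:62555031-62555150: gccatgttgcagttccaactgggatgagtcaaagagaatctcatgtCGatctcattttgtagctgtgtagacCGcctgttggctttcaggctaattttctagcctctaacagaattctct

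The partly methylated clusters were found on all 19 autosomes and were assigned to 1832 genes, while 1791 of the 4117 lay in no gene body or promoter. They were mostly intronic (44.5%) or between genes (38.5%), and 11.2% lay in coding exons. Promoters, taken by the study as 3000 bp upstream to 1000 bp downstream of a start site, held 6.46% of them, against 22.1% of lightly and 3.32% of fully methylated clusters of the same density. CpG islands, shores within 2000 bp of an island and open sea held them in near equal shares of 33.9%, 34.0% and 32.0%. Of lightly methylated clusters, 46.9% lay in islands. At least 50% of the 300 bp window was repeat sequence in 5.20% of partly methylated clusters and in 24.5% of fully methylated ones. Of the 789 with another cluster within 2000 bp, the nearest was lightly methylated in 35.1%, itself between 20 and 60% in 33.8% and above 60% in 31.1%. For lightly methylated clusters the nearest was below 20% in 75.2%, and for fully methylated ones it was above 60% in 58.6%.

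Letters of known binding motifs were counted in the same windows on both strands, as a description. The E-box CAGCTG, bound by muscle basic helix-loop-helix factors, was found in 23.2% of partly, 26.2% of lightly and 16.3% of fully methylated windows, and in 17.2% of all 51038. The GC box GGGCGG was found in 13.3%, 23.3% and 9.64%, and in 20.1% of all. The letters TGCCGC, bound by the imprinting factor ZFP57 and able to overlap the reverse complement of the GC box, were found in 7.26%, 11.0% and 7.57%, and in 9.67% of all.

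The question for genotype was whether loss of DNMT3A in muscle fibres altered these levels. In KO, 2815 of 4117 clusters (68.4%) had a lower mean level than in WT, and the median difference was -2.42 percentage points, with quartiles of -6.32 and 1.01. The same median was -0.41 points over lightly methylated, -0.98 over fully methylated and -0.46 over all 51038 clusters. Of these, 62.4%, 63.6% and 62.4% were lower in KO. On the log2 odds ratio scale of edgeR's fit, the median was -0.16 over partly methylated and -0.15 over all clusters. The larger difference in points was thus not seen on that scale. A fall of at least 10 points was measured in 486 clusters (11.8%) and a rise of that size in 52 (1.26%), against 4.99% and 0.645% of all clusters. The WT side of this difference had also chosen the clusters. When clusters were chosen instead by a KO level of 20 to 60%, which biases the difference the other way, the median over 4138 clusters was -2.59 points, and when they were chosen on all samples it was -2.56 points.

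By edgeR's quasi-likelihood test on the counts, with Benjamini-Hochberg adjustment over all 51038 clusters, 79 partly methylated clusters (1.92%) were called at an adjusted p under 0.05, all of them lower in KO. Over all clusters 557 were called, which is 1.09%, so the share among partly methylated clusters stood above that background, beside 1.72% of lightly and 0.813% of fully methylated clusters. No partly methylated cluster was called higher by edgeR's quasi-likelihood or likelihood ratio tests or by limma, a quasi-binomial model called 2, and at an unadjusted p under 0.05 there were 467 lower and 30 higher. Over all clusters 0.00588% were called higher. An unadjusted p under 0.05 in either direction was found in 12.1% of partly methylated clusters by edgeR's quasi-likelihood test. That share was 13.0% of lightly methylated, 9.27% of fully methylated and 9.56% of all clusters. Among the 79 the median level was 33.5% over WT samples and 18.1% over KO samples, with a median difference of -15.9 points and a range from -36.0 to -9.03, and 44 of them ended below 20%. In 31 of the 79 every one of the 23 KO samples lay below the WT mean, and 77 were lower in KO at rest and at each of the 3 times after exercise. Both counts are descriptions, since the 79 were called for this difference in the same samples. In none of the 79 did every KO sample lie below every WT sample, a separation seen in 0.00784% of all clusters. Without WT sample 32, 87 were called, 77 of them among the 79, and 619 over all clusters. The 4038 clusters that were not called had a median difference of -2.26 points.

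**Figure D1:**
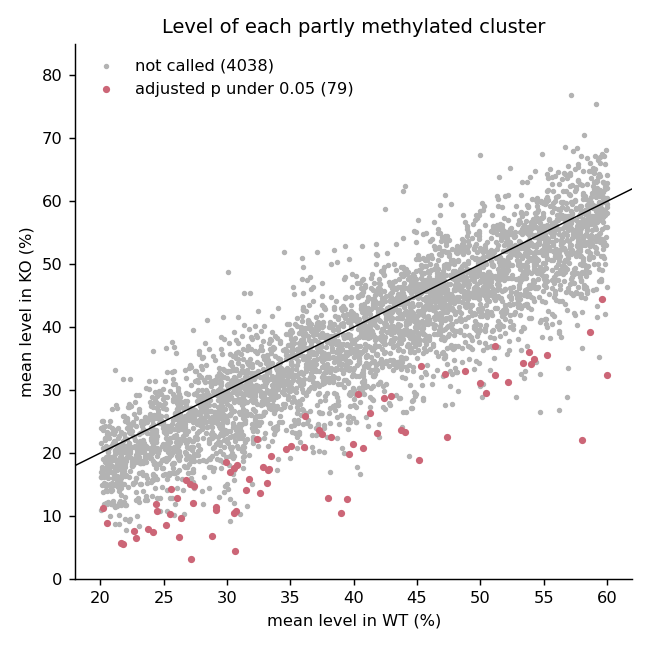
Mean level over 23 KO samples (vertical axis, %) against mean level over 21 WT samples (horizontal axis, %) for each of the 4117 partly methylated clusters, with the line of equality. All 79 called clusters (red) lie below the line, and 4038 (grey) were not called.

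The cluster with the lowest adjusted p lay in an intron of Trio, a guanine nucleotide exchange factor, at chr15:27784278-27784320. Its WT samples ran from 2.60 to 54.5% with a median of 31.0%, and its KO samples from 0 to 18.1% with a median of 4.69%. All 23 KO samples lay below the WT mean, and 3 of 21 WT samples lay at or below the highest KO sample. The mean fell from 30.6% ± 12.1 (SD, n = 21) to 4.40% ± 4.12 (SD, n = 23), a log2 odds ratio of -3.51 ± 0.48 (SE) with an adjusted p of 1.55e-05 by edgeR's quasi-likelihood test. Both counted CpGs shown in capitals above fell, from 34.4 to 3.17% and from 28.9 to 5.10%. Group means by time were 25.3 to 34.8% in WT and 2.43 to 7.51% in KO. The genotype contrast at this cluster was not called within any single time (adjusted p from 0.081 to 0.9995, edgeR quasi-likelihood).

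In an exon of a non-coding Nav2 transcript (chr7:49348314-49348437), a gene of neuronal migration, WT samples ran from 31.2 to 66.5% with a median of 49.7%, and KO samples from 21.1 to 48.0% with a median of 28.9%. The groups overlapped in the middle of that range, with 10 of 21 WT samples at or below the highest KO sample. The mean fell from 50.4% ± 10.1 to 29.6% ± 5.95 (SD, n = 21 and 23; log2 odds ratio -1.26 ± 0.19, adjusted p 7.17e-05, edgeR quasi-likelihood). Its 3 CpGs had WT levels of 27.4, 73.4 and 57.0% and KO levels of 10.4, 49.5 and 40.4%, so all fell while keeping their order. Stmn4 encodes a stathmin that binds tubulin, and its cluster over the start of the gene (chr14:66344235-66344456) had 454 to 3172 calls a sample. It ran from 24.4 to 53.2% in WT and from 13.9 to 31.6% in KO, with 4 of 21 WT samples at or below the highest KO sample, and its mean fell from 37.3% ± 6.54 to 23.6% ± 4.56. Over the 6 CpGs the WT level ranged from 11.7 to 50.2%, and each was lower in KO.

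The other clusters among the 10 with the lowest adjusted p lay in Tpcn2, a cation channel of lysosomes, in Dym, in Coro1c, which binds actin, in Grhl3, a transcription factor of epithelia, in Arhgef2, another exchange factor, in Rgs10, a regulator of G protein signalling, and between genes nearest to Ipo5, an importin. Tpcn2 fell from 41.8% ± 10.8 to 23.2% ± 6.05, and Dym from 29.2% ± 12.6 to 11.4% ± 6.27. The log2 odds ratio of Dym was -1.90 over all samples, -0.92 in sample numbers 1 to 25 and -2.87 in 26 to 50, that of Coro1c was -2.48 over all samples and -1.44 in 26 to 50, and that of Ipo5 was -1.85 and -1.17 in 1 to 25. Grhl3 had 32.9% ± 9.19 in WT and 17.8% ± 6.93 in KO, and the call was lost when only CpGs with many calls in every sample were kept (adjusted p = 0.0808, edgeR quasi-likelihood). Arhgef2 had 39.9% ± 11.5 and 21.5% ± 8.48, and Rgs10 had 33.3% ± 8.79 and 17.4% ± 7.55. In Arhgef2 and Rgs10, 22 of 23 KO samples lay below the WT mean, and in the other 8 of these 10 clusters all 23 did. Their adjusted p ran from 0.000205 to 0.00113.

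**Figure D2:**
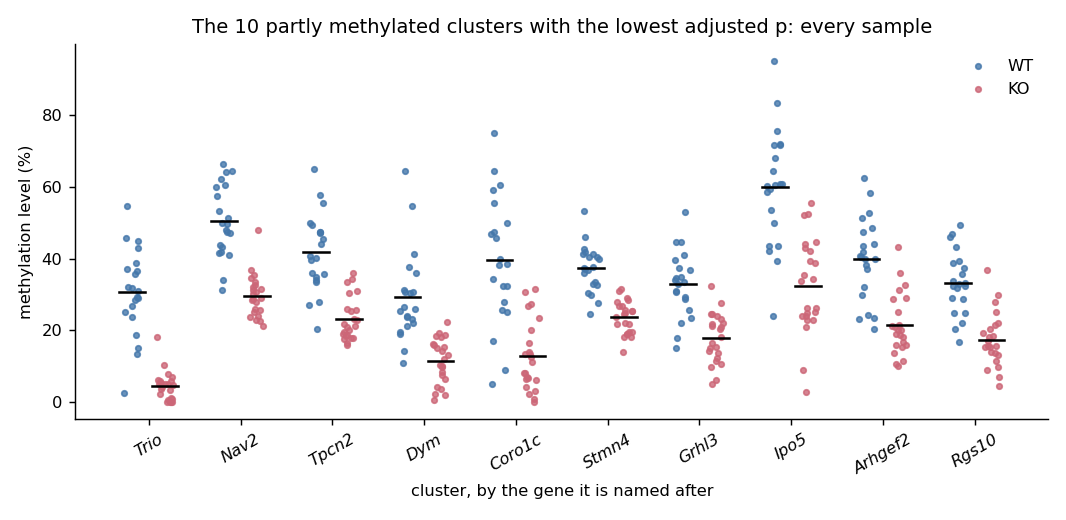
Methylation level (%) of every WT (blue, n = 21) and KO (red, n = 23) sample at the 10 clusters with the lowest adjusted p, with lines at the means. The KO mean sits below the WT mean at each cluster and the ranges overlap at all 10.

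The falls that were largest in points came from clusters with 1 counted CpG. Camkk2 encodes a kinase that activates calcium/calmodulin-dependent kinases and AMPK, and its intronic CpG (chr5:122773889-122773890) had WT samples from 16.4 to 97.9% with a median of 63.3%. KO samples ran from 1.22 to 58.8% with a median of 20.0%, so 22 of 23 KO samples lay below the WT mean, while 14 of 23 lay at or above the lowest WT sample. The mean fell by 36.0 points, from 58.0% ± 19.7 to 22.0% ± 15.1 (log2 odds ratio -2.63 ± 0.48, adjusted p 0.00118, edgeR quasi-likelihood). Rhoh, a small GTPase gene of blood cells, went from 39.0% ± 19.5 to 10.5% ± 11.6 in an untranslated 5′ exon (adjusted p 0.00459). The CpG nearest to Ipo5 went from 60.0% ± 16.2 to 32.3% ± 13.5, and that of Coro1c from 39.5% ± 18.1 to 12.7% ± 9.67. In an intron of Foxp1, a forkhead transcription factor, 45.2% ± 28.3 in WT and 18.9% ± 18.0 in KO gave an adjusted p of 0.0399, with 9 to 172 calls a sample. That call was lost (adjusted p from 0.0514 to 0.0679) when WT sample 1 (rest), 42 (10 min) or 38 (30 min) or KO sample 48 (30 min) was left out singly.

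By their level in WT, 25 of 935 clusters between 20 and 30% (2.67%) and 27 of 966 between 30 and 40% (2.80%) were called, against 14 of 1124 between 40 and 50% (1.25%) and 13 of 1092 between 50 and 60% (1.19%). Over all clusters of any density the shares in these ranges were 2.50%, 1.74%, 1.11% and 0.869%. The median difference was between -2.13 and -2.59 points in all 4 ranges. Calls also moved with the counts behind a level. The 1375 clusters with the fewest calls per sample gave 11 called clusters (0.8%) and the 1373 with the most gave 49 (3.57%). With the same bounds on calls, 0.456% and 1.78% of all clusters were called. The median difference over partly methylated clusters was -2.21 and -2.59 points. The part of depth in the count of called clusters was not tested. Clusters of other CpG densities with the same WT level moved alike, with a median of -1.95 points over 6523 clusters of fewer than 10 CpGs and -2.65 over 816 of 30 or more, of which 1.09% and 2.57% were called at median depths of 115 and 264 calls.

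**Figure D3:**
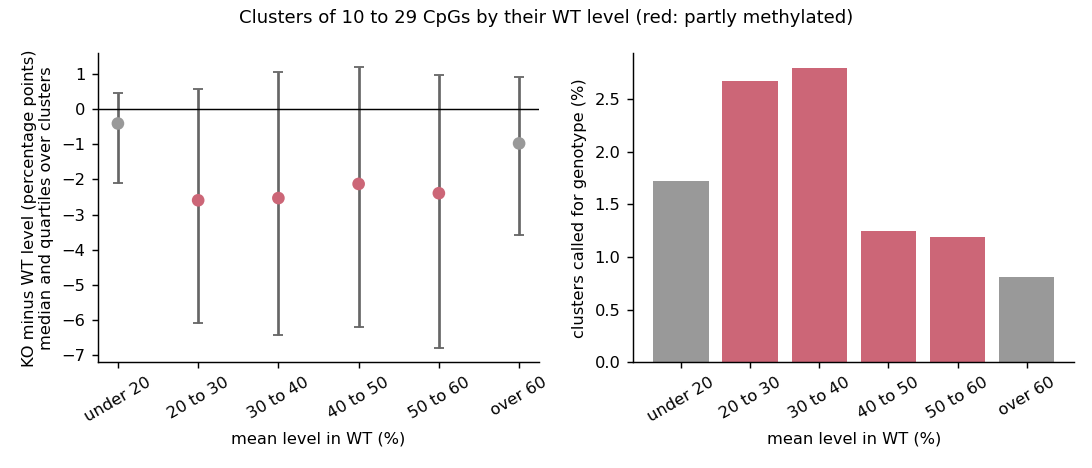
KO minus WT level in percentage points (left, median and quartiles over clusters) and the share of clusters called for genotype (right, %) for clusters of 10 to 29 CpGs, by their mean WT level. The 4 ranges from 20 to 60% (red) have medians from -2.59 to -2.13 points, against -0.41 below 20% and -0.98 above 60%.

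By position, 52 of 2060 clusters in gene bodies outside promoters (2.52%) and 9 of 266 in promoters (3.38%) were called, with median differences of -2.91 and -2.75 points. Clusters in neither gave 18 of 1791 (1.01%) and -1.93 points. The same order of gene bodies over neither was present in all 51038 clusters, of which 1.47% in gene bodies, 1.23% in promoters and 0.651% in neither were called. Islands, shores and open sea had 2.08%, 2.00% and 1.67% called and medians of -2.45, -2.58 and -2.17 points, beside 1.35%, 1.13% and 0.803% called over all clusters. The 214 clusters with at least 50% repeat sequence had a median difference of 0.37 points, and 98 of them (45.8%) were lower in KO, against 69.6% of the other 3903. None of the 214 was called by edgeR's 2 tests, the quasi-binomial model or limma, and 9 had an unadjusted p under 0.05. Their median depth was 118 calls a sample, against 172 for the rest. Of all 7302 clusters with at least 50% repeat sequence, 14 (0.192%) were called, against 1.24% of the other 43736. The median differences of these 2 sets were -0.33 and -0.47 points.

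Because a cluster level pools its CpGs, the 10301 CpGs of the partly methylated clusters were also examined singly. In WT 78.4% of them were themselves between 20 and 60%, 10.3% were below and 11.3% above. Only the CpGs with enough reads are counted, 15.7% of the CpGs these clusters hold in the genome, and 1337 clusters rest on 1 CpG. Among the 866 clusters with at least 4 counted CpGs, all CpGs lay between 20 and 60% in 269 (31.1%), while 83 (9.58%) held at least 1 CpG below 20% and 1 above 60%. The SD over CpGs of the WT level had a median of 11.7 points in these 866. The widest contrasts were in Gm10720, where the 2 CpGs had 1.06 and 96.2% in WT, in C2, a complement component whose cluster also lies at the promoter of Ehmt2, with 2.63 and 90.7%, and in Zfp935, a zinc finger gene, with 79.7 and 1.00%. Their WT levels of 48.7, 45.4 and 40.4% thus each joined an almost unmethylated CpG and a CpG at 79.7 to 96.2%. At the other end, the 2 CpGs had 46.8 and 46.8% near Lrrc8c, 48.7 and 48.6% in Prkch and 35.8 and 35.8% in Anks6.

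The called clusters were chosen by the sum over their CpGs, so the direction of those CpGs is a description. Of the 32 called clusters with at least 4 CpGs, every CpG was lower in KO in 29, and 163 of their 166 CpGs were lower, beside 65.8% of all CpGs of 20 to 60% in partly methylated clusters. The bases next to the CpG were also compared, since the base 3′ of the CpG is known to affect DNMT3A, and CpGs in CCGG were left aside as those sites are cut by the enzyme. Among CpGs of 20 to 60% in WT, those followed by C or T on both strands had a median difference of -3.46 points (n = 1136), those with C or T on one strand -3.16 (n = 2519) and those with A or G on both -2.72 (n = 971). Over all clusters the same medians were -3.42, -3.07 and -2.41 points. CpGs are not independent replicates, and these are descriptions.

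The spread between WT samples was wide. The median SD over the 21 WT samples was 15.3 points, against 5.68 for lightly and 9.94 for fully methylated clusters, and the median distance from the lowest to the highest WT sample was 58.0 points. In 397 clusters the WT samples ran from below 10 to above 90%. The 5 widest, at single CpGs in Srgap1, Luzp2, Fam219a and S1pr1 and near Tcf7l2, had SDs from 32.5 to 38.2 points and as few as 8 to 12 calls in a sample. In KO the SD was below that of WT in 2767 clusters (67.2%), against 59.4% of all clusters. The WT SD moved with depth, with medians of 20.6 points in the third with the fewest calls and 11.8 in that with the most. Median calls per cluster ran from 98 to 293 over WT samples and from 95 to 360 over KO samples. The part of depth and of the lower KO level in the SD was not tested. The smallest spreads were at Gm10720 (48.7% ± 2.38 in WT, 47.5% ± 2.02 in KO), at a cluster near Il27, a cytokine gene (47.4% ± 2.91 and 44.5% ± 6.69), and in Rcc1, the exchange factor of Ran (49.9% ± 3.19 and 48.7% ± 3.95). Gm10720 lies in repeat sequence (93.7% of its window), where reads of several copies may be counted together.

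Most clusters of smallest spread shared a position relative to the enzyme's sites. Of the 20 with a WT SD under 5 points, 18 had a WT level between 40 and 60%, against 53.8% of all partly methylated clusters. In 17 of the 20 a CpG lay at the end of an MspI fragment of 40 to 76 bases, against 23.4% of all 4117. The median WT SD was 16.8 points in the 446 clusters with all counted CpGs at such ends, 11.2 with some and 16.1 with none. Of these 446 clusters, 13 were among the 20. In the clusters near Il27 and in Rcc1 the CCGG CpGs shown above were 73 and 72 bases apart. Over all CpGs in CCGG, the share with a WT level between 20 and 60% was 30.3% for fragments of 70 to 76 bases and 16.9% for fragments of 77 to 84 bases, while the share above 60% was 8.66% and 31.3%. In shorter fragments the share between 20 and 60% was 12.6% at 40 to 49, 15.9% at 50 to 59, 17.2% at 60 to 64 and 23.1% at 65 to 69 bases, so that it stood above that of 77 to 84 bases mainly from 65 to 76, and the share above 60% was 16.6%, 15.0%, 9.64% and 8.66%. The reads were 75 bases long. End repair of MspI fragments fills the ends with unmethylated cytosines, which a read that spans the fragment can reach. The part of this in the levels was not tested. None of the 20 was called by the same 4 tests, and none had an unadjusted p under 0.05. Over all partly methylated clusters 1.92% were called by edgeR's quasi-likelihood test and 12.1% had such a p. Against these shares, 20 clusters are too few to show a contrast.

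**Figure D4:**
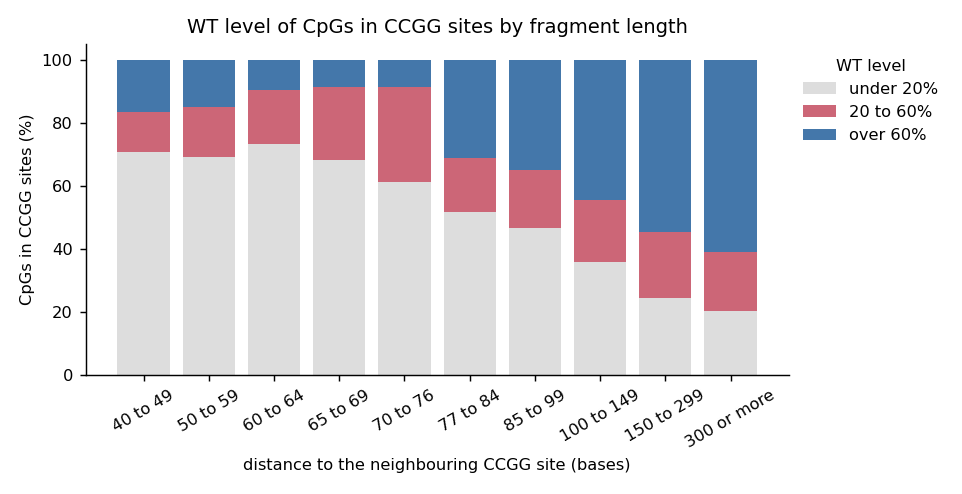
Share of CpGs in CCGG sites (vertical axis, %) with a WT level below 20% (grey), from 20 to 60% (red) and above 60% (blue), by the distance in bases to the neighbouring CCGG site at least 40 bases away (the nearer of both sides). The blue share changes from 8.66% at 70 to 76 bases to 31.3% at 77 to 84.

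Of the 4117 clusters, 446 (10.8%) had all their counted CpGs at such fragment ends, and of these 2 were called (0.448%) and the median difference was -1.005 points. Another 518 had some such CpGs, with 14 called and -2.25 points. The 3153 with none had 63 called (2.00%) and a median difference of -2.67 points, as large as over all 4117. Of fully methylated clusters 2.93% and of lightly methylated ones 8.01% had all CpGs at such ends. At least 1 such CpG was held by 23.4% of partly, 24.4% of lightly and 12.1% of fully methylated clusters.

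The lists of genes were chosen with earlier results known, and their counts read against the 1.92% of partly methylated clusters called. Over all clusters of the listed genes, of any density or level, 18 of 278 were called for muscle transcription factors. For metabolic and imprinted genes these counts were 4 of 124 and 3 of 113. For homeobox and other developmental genes they were 6 of 474 and 9 of 454, and for the neuromuscular junction 1 of 64. Germline genes and methylation machinery had 0 of 36 and 3 of 63. Immune markers and those of vessels, stroma and nerve sheath had 1 of 29 and 1 of 76. Among transcription factors of muscle and its precursors, 3 of 30 clusters were called, in Sim2, a basic helix-loop-helix factor (30.6% ± 12.0 in WT, 10.5% ± 6.32 in KO, adjusted p 0.00219), Pax7, the paired box factor of satellite cells (29.1% ± 11.1 and 10.9% ± 7.87, adjusted p 0.00398), and Barx2, a homeobox factor (20.2% ± 7.45 and 11.2% ± 5.59, adjusted p 0.0122). All are from the edgeR quasi-likelihood test. In Pax7 the cluster is intronic, at chr4:139757110-139757301, with 4 CpGs that all had lower KO means. WT samples there ran from 7.69 to 46.7% and KO samples from 0 to 31.3%, with 22 of 23 KO samples below the WT mean.

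Among metabolic genes, 2 of 16 clusters were called. Aldh1l1, a folate enzyme, fell from 21.6% ± 9.97 to 5.77% ± 4.33 (chr6:90550459-90550529, adjusted p 0.00178), and the promoter of Fkbp5, a co-chaperone of the glucocorticoid receptor, from 22.8% ± 10.4 to 6.49% ± 4.27 (adjusted p 0.00331, edgeR quasi-likelihood). All 23 KO samples lay below the WT mean in both. A cluster in the body of Fkbp5 had 20.3% ± 10.6 and 11.9% ± 7.00 and was not called (adjusted p 0.179).

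Developmental regulators were the largest lists. Of 42 clusters at homeobox genes 2 were called, in an intron of Cux2 (59.6% ± 11.9 to 44.4% ± 10.6, adjusted p 0.0228) and at the promoter of Pbx2, which spans an untranslated 5′ exon and coding exon and is assigned to the body of Gpsm3 (25.6% ± 8.58 to 14.2% ± 6.52, adjusted p 0.0372), while a second Cux2 cluster had 54.7% ± 15.2 and 40.8% ± 16.4 (adjusted p 0.187). Of 40 at other developmental genes 3 were called, in Foxp1 as given above, in Wnt7b, a secreted Wnt ligand (32.3% ± 8.88 to 22.2% ± 6.15, adjusted p 0.0386), and in Pax5, a B cell factor (40.3% ± 8.02 to 29.4% ± 6.88, adjusted p 0.0448, all by edgeR quasi-likelihood). The log2 odds ratio of Wnt7b was -0.78 over all samples and -0.46 in sample numbers 1 to 25 (rest and 60 min). Wnt7b lost its call (adjusted p from 0.0509 to 0.0691) when WT sample 1, 25 or 42 or KO sample 28 or 48 was left out singly, and Pax5 (0.0501 to 0.0808) without WT sample 1, 25, 38 or 42 or KO sample 8 or 28. The cluster at Pbx2 lost its call without WT sample 38 (adjusted p = 0.0586, edgeR quasi-likelihood) and when only CpGs with many calls in every sample were kept (adjusted p = 0.888, edgeR quasi-likelihood).

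Imprinted genes held 7 clusters and 1 was called, in an intron of Kcnq1, a potassium channel gene of an imprinted domain (chr7:143389262-143389291). Its WT samples ran from 14.3 to 87.9% with a median of 40.4%, and its KO samples from 8.45 to 39.4% with a median of 24.6%. The mean fell from 47.3% ± 23.0 to 22.6% ± 8.30 (adjusted p 0.00563, edgeR quasi-likelihood), and all 23 KO samples lay below the WT mean. Slc38a4, an amino acid transporter, had 51.9% ± 13.7 and 39.1% ± 13.4 (adjusted p 0.251), and Trappc9 47.9% ± 22.2 and 34.8% ± 20.1 (adjusted p 0.467).

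Genes of the sarcomere and its calcium handling held 29 clusters at 23 genes, and none was called by edgeR's 2 tests, the quasi-binomial model or limma, with 3 at an unadjusted p under 0.05. The lowest were in Pvalb, the calcium buffer of fast fibres (57.4% ± 9.99 and 48.4% ± 11.0, adjusted p 0.403), and 2 clusters of Dysf, a membrane repair protein (37.1% ± 21.4 and 22.9% ± 17.3, and 30.9% ± 12.1 and 23.2% ± 14.3). The 29 clusters of the sarcomere list had a median difference of -2.86 points, against -2.42 over all partly methylated clusters. Of the 204 clusters of that list at any density or level, 4 were called. Of 8 clusters at genes of the neuromuscular junction none was called by the same 4 tests, with 1 at an unadjusted p under 0.05. That was Chrne, the adult acetylcholine receptor subunit, with 57.9% ± 16.0 in WT and 48.0% ± 13.6 in KO, while Lama5 had 48.5% ± 24.8 and 34.4% ± 18.6 and Erbb3 50.2% ± 23.0 and 58.5% ± 18.5. Germline genes held 2 clusters, in Dppa3 (21.8% ± 18.7 and 17.1% ± 17.1) and Piwil1 (46.9% ± 5.54 and 45.6% ± 7.98). The methylation machinery held 3, in Tet3 (30.8% ± 18.0 and 20.8% ± 13.5), Cxxc1 (32.4% ± 18.3 and 42.6% ± 21.2) and at Ehmt2 (45.4% ± 4.54 and 43.0% ± 4.38). None of these 5 was called by any of the 4 tests or had an unadjusted p under 0.05.

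Markers of other cells of the muscle were few. The immune list held only the Rhoh cluster given above. Of 12 clusters at genes of vessels, stroma and nerve sheath none was called by the main test or limma, 1 had an unadjusted p under 0.05, and the edgeR likelihood ratio test and the quasi-binomial model each called 1. It was in Pecam1, an endothelial adhesion molecule, with 31.3% ± 12.8 in WT and 19.4% ± 11.7 in KO (adjusted p 0.122 by edgeR quasi-likelihood). Pdgfrb had 54.0% ± 13.1 and 44.8% ± 16.0, and Mbp 37.6% ± 25.8 and 23.9% ± 20.4. At any position, the genes of the muscle fibre check held 7 partly methylated clusters and those of the non-muscle check 2, none called by the 4 tests and none with an unadjusted p under 0.05. Whether the cell makeup of the samples had a part in the levels was not tested.

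Several genes held more than 1 partly methylated cluster. Gm20388 held 48, of which 32 were lower in KO and 2 were called. Zfhx3, a homeobox gene, held 9, of which 7 were lower in KO, with differences from -9.61 to 2.48 points. Cux2 held 6, of which 5 were lower and 1 was called.

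The mean level over the partly methylated clusters was 40.8% ± 3.61 (SD, n = 21) in WT samples and 38.0% ± 2.90 (SD, n = 23) in KO samples. The WT samples ran from 34.1 to 45.8% and the KO samples from 32.7 to 42.8%, so the genotypes overlapped over most of their range. Of 23 KO samples, 18 lay below the WT mean and 3 below the lowest WT sample. The difference between genotype means was -1.73 points at rest and -1.70 at 10 min, and -4.46 at 30 min and -3.54 at 60 min. In WT the group means were 41.1% ± 3.22, 39.5% ± 3.83, 42.3% ± 4.48 and 40.6% ± 3.43 at rest, 10, 30 and 60 min, and in KO 39.4% ± 2.68, 37.8% ± 3.36, 37.8% ± 3.05 and 37.0% ± 2.84. The spread within a group was as large as the differences between times. Rest and 60 min samples were numbered 1 to 25 and the others 26 to 50, so that time and any difference between these sets cannot be told apart when rest or 60 min is compared with 10 or 30 min. Rest with 60 min and 10 with 30 min are comparisons within a set, and both genotypes stand in each.

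**Figure D5:**
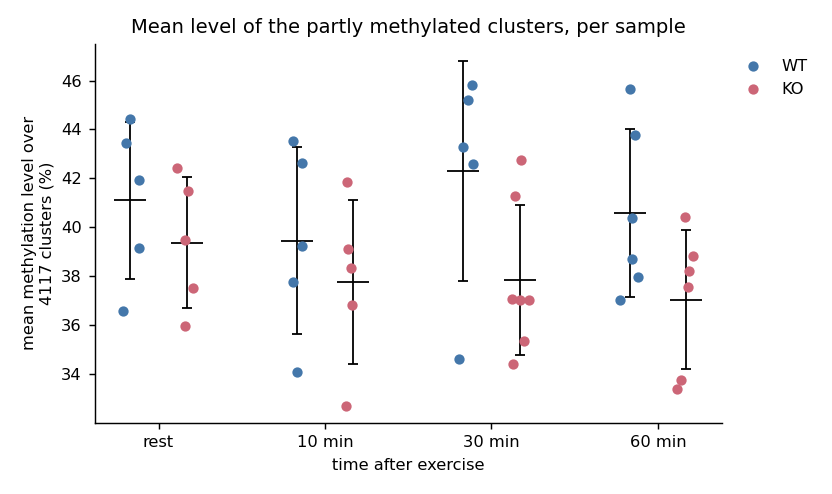
Mean level over the 4117 partly methylated clusters (%) in each sample, by time after exercise, for WT (blue) and KO (red). Bars give the mean and SD of each group, and the genotypes overlap at every time.

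No partly methylated cluster was called for time by edgeR's quasi-likelihood test (background 0%), by its likelihood ratio test, by the quasi-binomial model or by limma, and 84 (2.04%) had an unadjusted p under 0.05, against 2.86% of all clusters. The lowest p for time was in an intron of Wwox, a tumour suppressor of a fragile site, with WT means of 62.03, 75.5, 47.5 and 42.4% and KO means of 54.6, 49.6, 38.6 and 50.1% at rest, 10, 30 and 60 min (unadjusted p 0.00253, adjusted p 1, edgeR quasi-likelihood). For the interaction of genotype and time likewise none was called by the 4 tests (background 0%), with 66 (1.60%) at an unadjusted p under 0.05, against 2.74% of all clusters. The lowest was near Lpin2, a phosphatidate phosphatase (unadjusted p 0.00243, adjusted p 1). Within single times, the genotype contrast called 0 clusters at rest (background 0.00588%) and 0 at 10 min (0.0137%), with 181 (4.40%) and 190 (4.62%) at an unadjusted p under 0.05 by edgeR's quasi-likelihood test, below the 4.69% and 5.12% of all clusters. It called 1 at 30 min (0.0176%), the Kcnq1 cluster with 69.4% ± 9.46 in WT and 18.7% ± 7.43 in KO (adjusted p 0.0403), and 1 at 60 min (0.00784%), the Coro1c CpG with 51.3% ± 13.6 and 5.19% ± 5.01 (adjusted p 0.0189). At 30 and 60 min, 268 (6.51%) and 241 (5.85%) had an unadjusted p under 0.05, against 5.14% and 5.23% of all clusters. The interaction at these clusters had unadjusted p of 0.0156 and 0.0185 and adjusted p of 1 (edgeR quasi-likelihood), so a difference between times was not shown.

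For sex no partly methylated cluster was called by edgeR's quasi-likelihood test (background 0%) or limma, and 193 (4.69%) had an unadjusted p under 0.05, near the 4.37% of all clusters. Males were lower than females at 2614 clusters (63.5%), with a median difference of -1.60 points against -0.21 over all clusters. The lowest p was in Klc2, a kinesin light chain, where males had a mean of 41.1% and females 57.8% (adjusted p 0.497).

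The clusters nearest to the bounds of the rule are given as a description. Just above 20% were clusters in Slc25a21 (20.0% in WT, 24.0% in KO) and Grk1 (20.0% and 10.9%), and just below it Dclk1 (19.98% and 13.2%) and Mllt1 (19.97% and 16.9%). Just under 60% were Calhm5 (59.99% and 59.6%) and Tshz3 (59.99% and 62.9%), and just over it Pdlim5 (60.003% and 50.1%) and Sema6a (60.005% and 60.2%).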

How the data were processed

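Soleus DNA of 44 of the 50 samples was used, and the other 6 were not used here. The authors trimmed 75-base single-end reads with Trim Galore 0.4.0 and cutadapt 1.9.1, aligned them to mm10 with Bismark 0.18.1, and deposited methylated and unmethylated counts per CpG, with strands summed, kept where every sample had at least 8 calls and without chromosomes X, Y and M. The authors joined CpGs up to 100 bases apart into clusters and list the number of genome CpGs per cluster, which equals the chain of CpGs in the genome in 97.0% of clusters and exceeds the CpGs with counts.

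Counts were summed per cluster, and a level is methylated over all calls. The main test was edgeR 4.0.16 (R 4.3.3) with a coefficient per sample and 8 group means, a common dispersion without trend, the quasi-likelihood F test, 2-sided, and Benjamini-Hochberg adjustment over 51038 clusters. The likelihood ratio test, a quasi-binomial model, limma 3.58.1 on log2 ratios, a minimum of 20 calls, an added sex term, other choices of clusters, each set of sample numbers and samples left out were alternatives. Samples of a group were taken as replicates as labelled, p-values measure the spread between them, and depth was 12819404 to 41285655 calls per sample. Named clusters were the 10 with the lowest adjusted p, the 5 largest falls, up to 3 per gene list by lowest p, those with extreme spread over samples or CpGs, the 4 nearest to each bound and the lowest p for time, interaction and sex. Clusters discussed for fragment ends or several clusters per gene were chosen after their values were seen. The clusters and gene lists were chosen with earlier results of these data known. Positions, features and sequences came from GRCm38 (mm10), and 13708 of 13722 gene identifiers matched a symbol. Islands were runs of 200-base windows whose GC fraction reached 0.5 and whose CpG count reached 0.6 of that foreseen from the base composition.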

Additional observations from a re-analysis of the deposited data

Results flagged for a closer look

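In 4 of 112 groups of samples tested, 1 sample lay far from the rest of its group by Dixon's criterion, where chance flags about 1 in 20 groups (5.6 here). The mean level over the partly methylated clusters was 34.6% in WT sample 32 (30 min), against 42.6 to 45.8% in the other 4. At Tpcn2, KO sample 17 (60 min) had 23.1% against 16.6 to 19.0%. At Arhgef2, KO sample 29 (30 min) had 43.1% against 13.6 to 21.4%. At Rhoh, KO sample 24 (rest) had 25.6% against 0 to 6.15%.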

How the results depend on the processing

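The count of 79 partly methylated clusters called for genotype was 164 with edgeR's likelihood ratio test and 218 with the quasi-binomial model, and these included 79 and 78 of the 79. Over all clusters the count of 557 also rose, to 1414 and 1296. The partly methylated count was 2 with sample numbers 1 to 25 only (25 over all clusters) and 1 with 26 to 50 only (33), which leave fewer samples. Clusters of 30 to 50% in WT gave 41 of 2090. Limma gave 103 (895 over all clusters), a minimum of 20 calls 58 of 2240 (426), and an added sex term 81 (573). Choice by KO level, by all samples and by pooled WT calls gave 77, 81 and 78. Leaving out the sample with the fewest calls of each group gave 59 to 76 (467 to 558 over all clusters). Leaving out the sample with the most calls was not run. Alternatives added after seeing the data were the 3153 clusters without CpGs at short fragment ends (63) and without WT sample 32 (87, and 619 over all clusters). The median difference of -2.42 points stayed between -2.78 and -2.16 with unweighted or pooled levels, a minimum of 20 calls, choice by KO level or all samples, each set of sample numbers, without short fragment ends and with each sample left out. For time and interaction no partly methylated cluster was called by any of the 4 tests, while over all clusters the likelihood ratio test called 10 and 7 and limma 0 and 1. Of 56 named clusters none reversed, 62 values lost and 3 gained a call, the latter at Cux2 (the second cluster) and Pecam1. Each of the 23 named clusters that were called lost its call in at least 1 alternative. Sample numbers 1 to 25 only and 26 to 50 only, which leave fewer samples, gave 22 of the lost calls each. No paired analysis was possible because the sample numbers are not shared between groups.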

Other observations

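The genotype difference was similar across the density range of the partly methylated clusters. The median difference was -2.23, -2.41, -2.96 and -2.45 points for clusters of 10 to 14, 15 to 19, 20 to 24 and 25 to 29 genome CpGs, and 33, 28, 11 and 7 of them were called, that is 1.63, 2.50, 1.82 and 1.92%. Over all clusters in the same ranges 1.25, 1.61, 1.00 and 1.22% were called. Clusters with 1 counted CpG gave 14 called of 1337 (1.05%), while those with 4 to 6 gave 28 of 755 (3.71%). Over all clusters the same shares were 0.473% and 1.68%. The partly methylated ones had medians of -2.42 and -2.58 points and WT spreads between samples with a median SD of 20.3 and 12.1 points.

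Of the 79 called clusters 18 had another cluster within 2000 bp, of any density or level. The nearest was lower in KO in 15 of the 18, with a median difference of -4.26 points, and was itself called in 2. Over all clusters the nearest was lower in 112 of 144 and called in 17, so these counts were near that background. The KO level was between 20 and 60% in 3612 of the 4117 clusters, below 20% in 375 and above 60% in 130.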
